A study of Mus musculus with 6 samples.

Results

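Sox13, Sox4, Sox5, Tcf7, Lef1 and Tox, transcription factor genes with an HMG box, and Bcl11b, a zinc finger factor gene of T cell development, were examined in an IL-17-producing and an IL-17-non-producing mouse hybridoma. The set was taken as the probes whose symbol in the platform annotation was one of these 7 names. It comprised 18 of the 45281 probes on the array and covered 6 of the 7 genes, of 19057 genes named for the array; Tcf7 was listed for no probe and is not analysed here. A hybridoma is a cell line from the fusion of a lymphocyte and a tumour cell. The producing group held 3 arrays of the hybridoma S2 and the non-producing group 3 arrays of the hybridoma DE3. Both lines were grown in RPMI with 10% fetal calf serum, and the labels name no treatment, genotype or strain. Each group is 1 hybridoma, and the labels do not say whether its samples were separate cultures, so a p-value here covers no more than the spread among the 3 samples of each line, and that spread may be technical.

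HMG-box proteins bind the minor groove of DNA through the HMG box and bend it. SOX proteins and the TCF and LEF proteins each recognise a short sequence of their own through this box, and TCF and LEF proteins take up beta-catenin as a coactivator when Wnt signalling is on and Groucho proteins of the TLE family as corepressors when it is off. In the mouse thymus, Sox13 marks and promotes gamma delta T cells and, together with Sox4, is needed for gamma delta T cells that make IL-17. Tcf7, which encodes TCF-1, and Lef1 act in early T cell specification, Bcl11b acts in commitment to the T lineage, and Tox is needed for the development of CD4 T cells.

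Sox13 was higher in the producing hybridoma by 2.43-fold, while Sox4 and Lef1 were lower there, by 1.87-fold and 2.44-fold. Tox and Sox5 did not pass the test, and the 4 probes of Bcl11b lay between 0.23 and 0.32 on the log2 scale with 2 of them past it. Of the 6 genes, each represented by the brightest of its tested probes, 1 rose, 2 fell and the other 3 did not pass (limma, Benjamini-Hochberg adjusted p under 0.05 over 17445 tested probes). The background in this comparison was high: 36.7% of 9395 tested genes passed, 18.1% higher and 18.6% lower, so 3 of 6 is not far from the share among all genes. In size the changes were less common. The Sox4 difference or a larger one was reached by 4.53% of the tested genes, and a difference larger than that of Sox13 or Lef1 by 2.09% and 2.06%. The median log2 difference was 0.05 over the 6 genes and 0.00 over all tested genes. When arrays were brought to equal medians instead of equal distributions, the median of all tested probes lay at -0.22 and 12.8% of the probes past the test were higher in the producing hybridoma, against 50.1% in the values given here.

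The arrays were of comparable brightness within each group. Mean signal was 399 to 482 on the producing arrays and 505 to 559 on the non-producing arrays, and 36.9% to 37.4% and 38% to 39.4% of the probes were detected (detection p under 0.05). The 6 arrays were positions of 1 chip, each group in its own block of neighbours, so position and group cannot be told apart. Among T cell markers, 7 of the 9 with a probe were detected on all 6 arrays. Of these, 2 were higher and 3 lower in the producing hybridoma (0 and 3 with median scaling). That is 71.4% past the test, beside 36.7% of all tested genes. Cd5 was detected on no array and Cd2 on at most 2. Of 5 B cell markers with a probe 0 were detected on all 6 arrays, and of 7 myeloid markers 0 on any array. Of 7 fibroblast and stromal markers, Pdgfrb was detected on all 6 arrays and the others on at most 2. Pdgfrb was at 0.49 (limma adjusted p = 0.0317) and did not pass with median scaling (0.29), with no filter, or when array 2 of either group, non-producing array 1 or producing array 3 was dropped (limma adjusted p 0.0810 to 0.110). In bulk RNA, fewer cells with a transcript and less of it per cell cannot be told apart.

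The stretches around the annotated starts of the 3 genes that passed are given because these genes moved in both directions. Each runs from 250 bases before to 50 bases after the start, on the gene's strand, as RefSeq gives them for GRCm38.p6. They lie at chr1:133424163-133424462 (minus strand) for Sox13, chr13:28953650-28953949 (minus strand) for Sox4 and chr3:131110047-131110346 (plus strand) for Lef1. For Sox13 the start used is an inner one: the outermost, at 133424459, lies at the upstream edge of the window. Most of the Sox13 window is therefore inside the gene, unlike those of Sox4 and Lef1. Capitals mark CCAAT or its reverse complement ATTGG, a common promoter element, and GGGCGG or CCGCCC, the GC box.
Sox13: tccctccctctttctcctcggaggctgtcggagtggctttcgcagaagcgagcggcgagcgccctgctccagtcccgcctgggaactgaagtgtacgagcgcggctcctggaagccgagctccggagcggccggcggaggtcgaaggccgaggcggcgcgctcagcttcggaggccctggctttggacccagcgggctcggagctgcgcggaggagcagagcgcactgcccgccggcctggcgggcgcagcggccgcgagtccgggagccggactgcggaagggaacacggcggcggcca
Sox4: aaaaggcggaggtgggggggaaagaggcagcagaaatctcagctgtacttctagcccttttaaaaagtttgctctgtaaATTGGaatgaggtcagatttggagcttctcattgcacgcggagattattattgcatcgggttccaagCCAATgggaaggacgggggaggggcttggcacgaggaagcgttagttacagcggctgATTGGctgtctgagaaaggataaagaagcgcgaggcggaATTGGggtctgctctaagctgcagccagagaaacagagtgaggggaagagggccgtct
Lef1: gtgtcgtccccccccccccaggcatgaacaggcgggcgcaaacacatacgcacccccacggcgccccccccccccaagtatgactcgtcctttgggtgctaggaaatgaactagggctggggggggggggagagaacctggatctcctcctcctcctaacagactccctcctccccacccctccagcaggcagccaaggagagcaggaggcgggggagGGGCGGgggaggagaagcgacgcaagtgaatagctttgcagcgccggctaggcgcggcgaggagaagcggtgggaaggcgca

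The Sox4 stretch held 4 matches to CCAAT in either orientation, a number reached by 1.06% of the 32851 windows in the table, and no GC box. Of 5 short sequences searched in 10 windows, only the CCAAT count of Sox4 was ranked this way. The 1.06% is therefore a description and no test. At least 1 CCAAT match was present in 37.4% of all windows. The Lef1 stretch held 1 GC box, which 35.7% of all windows had, and that of Sox13 held neither element. Sox13 had the most GC-rich of the 3 windows, at 73.3% G and C, against 52.0% for Sox4, 67.3% for Lef1 and a median of 52.7% over all windows. The Sox13 window lies mostly inside its gene and is not a like stretch to those of Sox4 and Lef1. The short sequences recognised by HMG-box factors were searched on both strands: CTTTGTT and CTTTGAT for TCF and LEF proteins and AACAAT for SOX proteins. None occurs within another, and 18.7% of all windows held at least 1 of the 3. None was found in the 10 windows listed for 6 of the 7 genes, which says only that these letters are not in these windows. The 7 genes lie on 7 different chromosomes.

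Sox13 encodes a SOX protein of the D group, which it shares with Sox5 and Sox6. Its gene (ID 20668) lies on chromosome 1 from 133382300 to 133424459 in GRCm38.p6. The single probe, ILMN_1244292, had a deposited signal of 132, 152 and 133 on the producing arrays, against 95.8, 86.5 and 96.0 on the non-producing arrays. Every producing array was thus above every non-producing one, although the producing arrays were the dimmer ones overall. After normalization the log2 values were 6.58, 6.78 and 6.84 in the producing group, against 5.48, 5.28 and 5.60 in the non-producing group. The groups differed by 1.28 on the log2 scale (SE 0.11, 95% interval 1.03 to 1.53, limma adjusted p = 9.25e-05). The probe was detected on all 6 arrays. Sox13 passed under all 16 alternatives, and the size depended on how background was handled: without background correction the difference was 0.77.

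Sox4 encodes a SOX protein of the C group, which also contains Sox11 and Sox12, and lies on chromosome 13 from 28948919 to 28953699 (gene ID 20677). Its brighter probe, ILMN_2727116, had signals of 272, 298 and 230 on the producing arrays, against 705, 490 and 539 on the non-producing arrays. The normalized log2 values were 7.97, 8.03 and 7.92 in the producing group, against 9.08, 8.69 and 8.87 in the non-producing group. The groups did not overlap, and the non-producing arrays were the more spread out. The groups differed by -0.91 in log2 (SE 0.11, 95% interval -1.15 to -0.66, limma adjusted p = 0.000499). The second probe, ILMN_2893417, was dimmer, with signals of 85.4, 81.2 and 73.7 in the producing group, against 122, 110 and 114 in the non-producing group, and its difference was -0.74 (limma adjusted p = 0.000893). Both probes of Sox4 therefore gave the same direction without overlap between the groups, and both passed under every alternative that used them.

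Lef1 encodes lymphoid enhancer factor 1, a beta-catenin partner close to TCF-1, and lies on chromosome 3 from 131110297 to 131224357 (gene ID 16842). Its brightest probe, ILMN_2648475, had signals of 166, 130 and 107 on the producing arrays, against 326, 306 and 301 on the non-producing arrays. In normalized log2 values this was 7.05, 6.45 and 6.32 in the producing group, against 7.85, 7.91 and 7.92 in the non-producing group. The non-producing arrays lay close together, whereas producing array 1 stood above the other 2 of its group and still below all 3 non-producing arrays. The log2 values differed by -1.29 (SE 0.17, 95% interval -1.69 to -0.89, limma adjusted p = 0.00092). Without producing array 1 it was -1.51, the largest value with any array left out. A second probe, ILMN_1239469, averaged 5.66 ± 0.15 on producing arrays, against 6.58 ± 0.03 on non-producing arrays (SD, n = 3 each), for a difference of -0.92 (limma adjusted p = 0.000212). The other 2 probes, ILMN_1233230 and ILMN_1231087, were detected on none of the 6 arrays, although ILMN_1231087 is annotated to the same transcript accession as the 2 detected ones. What sets them apart was not tested.

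**Figure D1:**
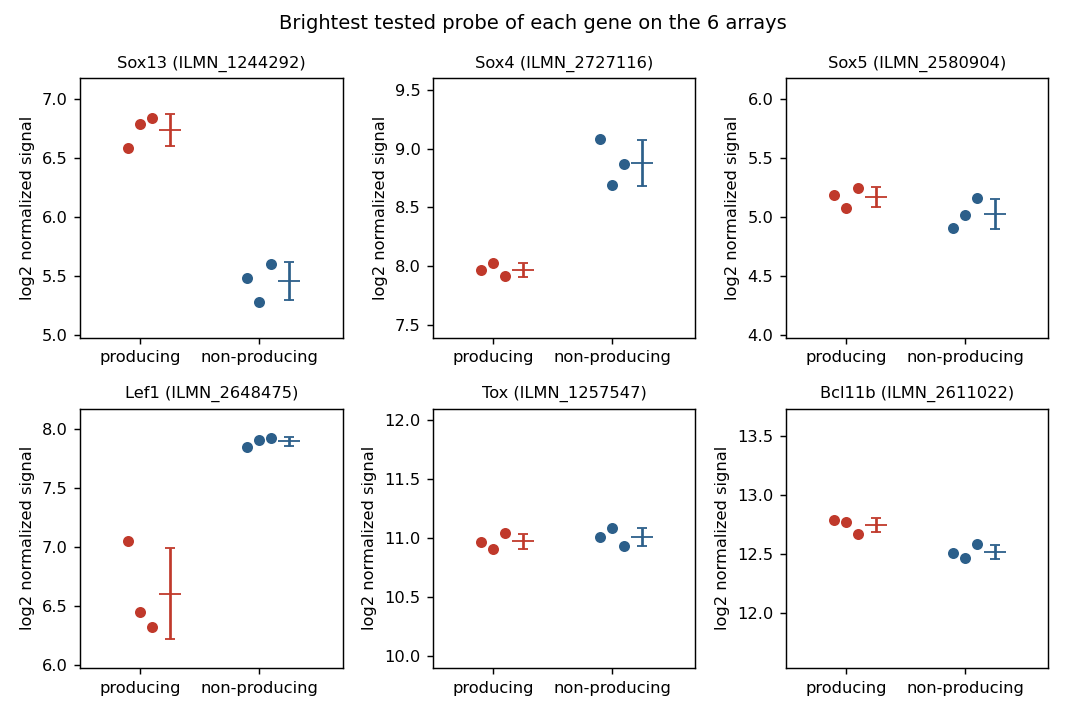
Normalized signal (log2, vertical axis) of the brightest tested probe of Sox13, Sox4, Sox5, Lef1, Tox and Bcl11b on the 3 producing and 3 non-producing arrays; points are arrays, the bar beside them is the mean with its SD, and each panel spans the same log2 range at its own level. Sox13 is higher on all producing arrays, Sox4 and Lef1 are lower on all of them, and the groups of Tox and Sox5 overlap.

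Bcl11b encodes a zinc finger repressor and activator rather than an HMG-box protein and was read by 4 probes, all detected on all 6 arrays. The gene (ID 58208) lies on chromosome 12 from 107910403 to 108004145. The brightest probe, ILMN_2611022, had signals of 6563, 7009 and 5201 on the producing arrays, against 7011, 6077 and 6499 on the non-producing arrays. As deposited, these signals overlapped, and they separated only after normalization, to 12.79, 12.78 and 12.67 in the producing group, against 12.51, 12.47 and 12.58 in the non-producing group. The log2 difference of 0.23 did not pass (95% interval 0.05 to 0.40, limma adjusted p = 0.0540). Probes ILMN_2436183 (0.31, limma adjusted p = 0.0137) and ILMN_2443624 (0.31, limma adjusted p = 0.0437) passed, and ILMN_1223119 (0.32, limma adjusted p = 0.125) did not.

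The Bcl11b probes differed little in size, and the outcome of the test turned on the processing. The mean of the 4 probes differed by 0.29 and passed (limma adjusted p = 0.0173). With median scaling the differences of the 4 probes ran from -0.01 to 0.05 and none passed, while the median of all tested probes stood at -0.22. ILMN_2436183 did not pass once non-producing array 2 was dropped (0.28, limma adjusted p = 0.0508). ILMN_2443624 did not pass when array 1 or 3 of either group was dropped (limma adjusted p 0.0892 to 0.121). ILMN_1223119 passed without producing array 1 (0.46, limma adjusted p = 0.0312).

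Tox encodes an HMG-box protein of thymocyte selection (gene ID 252838, chromosome 4, 6686353 to 6991557) and was read by 1 probe, ILMN_1257547. Its signals were 1889, 1958 and 1650 on the producing arrays, against 2548, 2349 and 2093 on the non-producing arrays. Normalization to equal distributions brought these to 10.97, 10.91 and 11.04 in the producing group, against 11.00, 11.09 and 10.93 in the non-producing group, and the groups then overlapped. The log2 difference was -0.04 with a 95% interval of -0.22 to 0.15 (limma adjusted p = 0.770). With median scaling it was -0.29 and did not pass (limma adjusted p = 0.0759), while the median of all tested probes stood at -0.22. With the median difference of each chromosome removed, which was 0.27 on chromosome 4, Tox stood at -0.31 and passed (limma adjusted p = 0.0227).

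Sox5, a relative of Sox13 in the D group that acts in cartilage and neural development (gene ID 20678, chromosome 6, 143828425 to 144782287), was at the limit of detection. Of its 6 probes, 5 were detected on none of the 6 arrays. The remaining one, ILMN_2580904, had signals of 79.3, 78.8 and 75.9 on the producing arrays, against 76.0, 78.9 and 82.5 on the non-producing arrays, and was detected on 3 producing and 1 non-producing arrays. These signals overlapped. Its log2 difference of 0.14 did not pass (95% interval -0.07 to 0.36, limma adjusted p = 0.270).

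**Figure D2:**
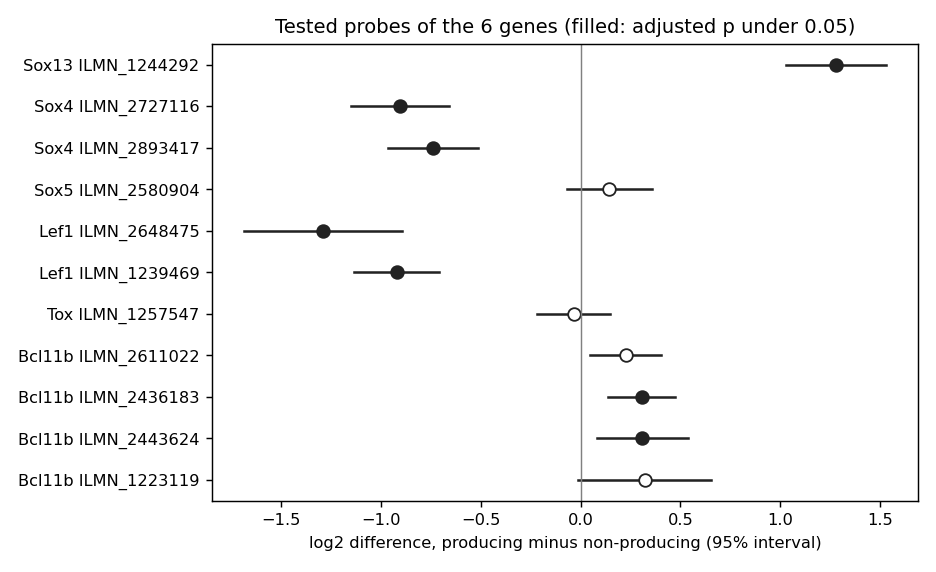
Log2 difference, producing minus non-producing (horizontal axis), of the 11 tested probes of the 6 genes with 95% intervals; filled points passed an adjusted p of 0.05. Both tested probes of Sox4 and of Lef1 lie below 0, the Sox13 probe lies above 1, and the 4 Bcl11b probes lie between 0.23 and 0.32.

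Of the 18 probes, 11 passed the filter on detection and 7 did not. Of those 11, 7 passed the test, with 3 up and 4 down in the producing hybridoma, where 33.9% of all tested probes passed. The groups did not overlap for 8 of the 11, against 47.8% of all tested probes. Those 8 read only Sox13, Sox4, Lef1 and Bcl11b, so they are not independent. Counted by gene, 3 of 6 passed. Wherever a gene had more than 1 tested probe, the probes gave the same direction in the values given here. With median scaling the Bcl11b probes ran from -0.01 to 0.05. A factor common to all normalized values of an array leaves the gap between Sox13 and Sox4 unchanged, but the gap depends on how background was handled. In log2 values Sox13 minus Sox4 was -1.38, -1.25 and -1.08 on the producing arrays, against -3.60, -3.41 and -3.27 on the non-producing arrays, a shift of 2.19. Sox13 minus Lef1 was -0.47, 0.34 and 0.52 on the producing arrays, against -2.37, -2.63 and -2.32 on the non-producing arrays, a shift of 2.57. Both shifts were smaller without background correction, where Sox13 stood at 0.77, Sox4 at -0.80 and Lef1 at -0.98. Neither pair overlapped between the groups. That follows from Sox13 being higher, and Sox4 and Lef1 lower, on every producing array, so it is no further result. Sox4 minus Lef1, by contrast, was 0.92, 1.59 and 1.60 on the producing arrays, against 1.23, 0.78 and 0.95 on the non-producing arrays, and overlapped.

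The rest of the SOX family was mostly not detected. Of 20 SOX genes with a probe, 12 were detected on no array, Sox6 and Sox11 among them, and 8 were tested. Of these, Sox13 rose, Sox4 and Sox21 fell and 5 did not pass (median log2 difference 0.08). The share past the test was 37.5%, beside 36.7% of all tested genes. Sox21, a SOX protein of the B group known as a repressor in neural development, had the largest difference of the family. Its signals were 78.6, 78.1 and 77.5 on the producing arrays, against 262, 269 and 280 on the non-producing arrays, and it was detected on 2 of the 3 producing and all non-producing arrays. The normalized values differed by -2.48 in log2 (SE 0.11, limma adjusted p = 2.83e-06), and by -1.60 without background correction. Sox2, Sox7, Sox8 and Sox12 differed by 0.02 to 0.12 and did not pass.

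Among the other TCF and LEF genes, Tcf7l1 was tested and stood at 0.07 (limma adjusted p = 0.749), and Tcf7l2 was detected on no array. In the TOX family, 3 of 4 genes were tested. Tox4, a subunit of a phosphatase complex on chromatin, was at -0.34 (limma adjusted p = 0.0213) and its other probe at -0.14 did not pass. Tox2 was at -0.31 (limma adjusted p = 0.0379), with detection on 1 producing and 3 non-producing arrays. Both calls were close to the threshold. Tox4 missed it when non-producing array 1, non-producing array 3 or producing array 1 was dropped (limma adjusted p 0.0547 to 0.0716). Tox2 missed it for each array dropped except producing array 2 (limma adjusted p 0.0682 to 0.106) and stood at -0.15 without background correction, not past the test. Bcl11a, the relative of Bcl11b, was detected on no array. Of 13 further HMG-box genes tested, 2 rose, 3 fell and 8 did not pass, a share of 38.5% with a median of 0.10, and without background correction 3 rose and 4 fell. Ubtf, an activator of ribosomal RNA genes, was at 0.74 on its brightest probe and at -0.37 on the next one, both past the test, so its direction is not settled. Bbx fell (-0.45), as did Wdhd1, which acts in DNA replication (-0.35), and Tfam, which packages mitochondrial DNA (-0.31). The call of Tfam was lost without producing array 2 or non-producing array 3 (limma adjusted p 0.0564 and 0.0555). The other tested probe of Tfam stood at -0.16 and did not pass. Smarce1, a chromatin remodelling subunit, rose (0.40), which no longer passed once producing array 1 or non-producing array 2 was dropped (limma adjusted p 0.0612 and 0.0508) and with median scaling (0.10).

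**Figure D3:**
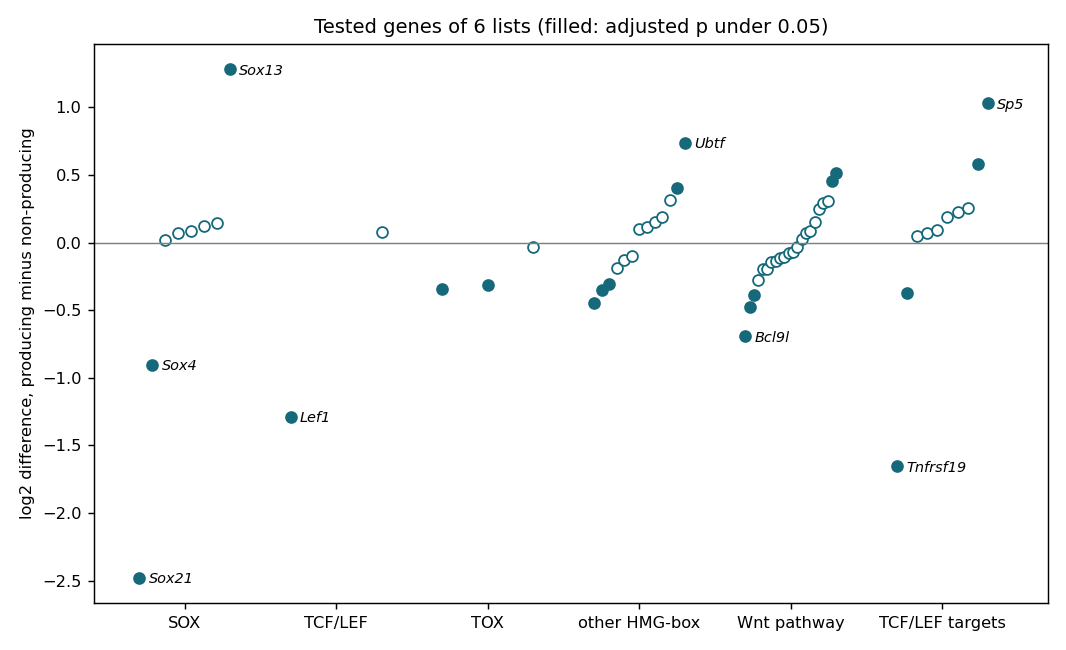
Log2 difference, producing minus non-producing (vertical axis), of each tested gene in 6 lists, read from its brightest tested probe and ordered by value within a list; filled points passed an adjusted p of 0.05. Sox13, Sox4, Sox21, Lef1, Sp5 and Tnfrsf19 lie farthest from 0, while most genes of the Wnt pathway lie within 0.5.

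Genes of the beta-catenin pathway, through which Lef1 acts, passed the test in both directions. Of 22 tested genes for beta-catenin partners and Wnt signalling, 2 rose, 3 fell and 17 did not pass. That is 22.7%, beside 36.7% of all tested genes, with a median of -0.07. The count moved with the processing. Without background correction 4 of the 22 were higher and 4 lower, and with median scaling 0 were higher and 8 lower. Ctnnb1, which encodes beta-catenin itself, averaged 11.33 ± 0.10 on producing arrays, against 11.43 ± 0.07 on non-producing arrays (SD, n = 3 each) by its brightest probe, for a difference of -0.11 that did not pass (limma adjusted p = 0.371). Its other 3 probes read -0.39, 0.03 and 0.59, of which the first and the last passed, so the probes of Ctnnb1 disagreed. Bcl9l, a coactivator that binds beta-catenin, fell (-0.69). Axin1, a scaffold of the complex that degrades beta-catenin, rose on its brightest probe (0.51), while its other tested probe at 0.15 did not pass. The corepressor genes Tle3 (-0.47) and Tle1 (0.46) went opposite ways. The brightest probe of Bcl9, a relative of Bcl9l, passed at -0.39, while its other tested probes stood at 0.24 and 0.03 and did not pass, so the direction of Bcl9 is not settled. Axin1 and Tle1 did not pass with median scaling (0.23 and 0.32) or with chromosome medians removed (0.22 and 0.18). Tle1 missed the threshold for each array dropped except producing array 3 (limma adjusted p 0.0532 to 0.0845), and Tle3 missed it when producing array 1 or 2 was dropped (0.0529 and 0.0509).

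Of 15 genes known as targets of TCF-1, LEF-1 or beta-catenin, 10 were tested, of which 2 rose, 2 fell and 6 did not pass. That is 40% past the test, beside 36.7% of all tested genes. Axin2, the target most often used as a readout of this pathway, read 9.18, 9.27 and 9.06 in the producing group, against 9.26, 9.02 and 9.08 in the non-producing group, and the groups overlapped (difference 0.05, limma adjusted p = 0.741). Tnfrsf19, a receptor of the tumour necrosis factor family, read 6.18, 6.38 and 6.04 in the producing group, against 7.99, 7.90 and 7.67 in the non-producing group (difference -1.65, limma adjusted p = 3.41e-05). Sp5, a zinc finger factor induced by Wnt, read 6.15, 6.32 and 6.12 in the producing group, against 5.32, 5.02 and 5.16 in the non-producing group (difference 1.03, limma adjusted p = 0.00019, and 0.55 without background correction). The targets past the test thus lay in both directions, Tnfrsf19 and Nkd1 lower and Sp5 and Ccnd1 higher in the producing hybridoma. Ccnd1, which encodes cyclin D1, was at 0.58 with all 3 of its tested probes past the test, and at 0.28 with median scaling, where it did not pass. Nkd1, an inhibitor of Wnt signalling, was at -0.37, and dropping any array other than number 1 of the producing and number 2 of the non-producing group took it out of the calls (limma adjusted p 0.0916 to 0.109), as did leaving out the background correction (-0.20).

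A further list joined genes of gamma delta T cells that make IL-17, Sox13 and Sox4 included, with genes of those that make interferon gamma, such as Cd27, so its counts describe neither programme alone. Among the 10 that were tested, 4 were higher, 1 was lower and 5 missed the threshold. That is 50% past the test, beside 36.7% of all tested genes. Cd27, a costimulatory receptor gene, was at 2.17, or 1.32 without background correction, and its other tested probe at 0.10 did not pass. Il17re, a receptor subunit gene (0.91), and Runx1 (0.49) also rose, and Runx1 did not pass with median scaling (0.22) or with chromosome medians removed (0.24). Sox4 was the one that fell. Ccr6 (0.02), Rora (0.09) and Etv5 (0.02) were among those that did not pass. Il23r, Il1r1, Blk and Zbtb16 were detected on no array. The cytokine genes Il17a and Il17f were detected on none of the 6 arrays, so the labels of the groups could not be checked against them. Among genes linked to T cell commitment, where Bcl11b acts, 17 were tested, of which 4 rose, 5 fell and 8 did not pass. Their share past the test was 52.9%, beside 36.7% of all tested genes. The largest differences were those of Kit, Hes1 and Lyl1. Kit, the receptor for stem cell factor, was at -2.99, but it was detected on only 1 of 3 producing arrays and stood at -2.01 without background correction. Hes1, a repressor induced by Notch, was at 2.45. Lyl1, a basic helix-loop-helix factor, was higher, but it was not above background on any non-producing array, and no fold is given. Cd3d, a subunit of the T cell receptor complex, came next among the genes past the test, at -1.0. Gata3, a factor of early T cell development, was at 0.07 and stayed short of the threshold (limma adjusted p = 0.593).

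The genes with patterns closest to the 3 that passed were found by the Euclidean distance between the 6 log2 values, each centred on its own mean. Closest to Sox13 were Ckb, the brain-type creatine kinase (distance 0.226), Orc3, a subunit of the origin recognition complex (0.250), and H2-T23, a nonclassical class I gene (0.273). Closest to Sox4 were Syne3, which links the nuclear envelope to the cytoskeleton (0.0639), Nt5dc2 (0.148) and Tesc, a calcium-binding protein gene (0.154). For Lef1 they were Wscd1 (0.341), Rbbp9 (0.384) and Rtl8c (0.388), all farther away than those of the other genes. Over 6 arrays in 2 groups this likeness mostly reflects a difference of similar size.

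Neighbours in the gene order of GRCm38.p6 were looked up after these values were seen, 3 tested genes on each side. Around Lef1, 0 of 6 neighbours passed the test and their differences lay between -0.14 and 0.19. Around Sox13, 1 of 6 passed, Nfasc at 0.40, against 1.28 for Sox13. Around Sox4, 4 of 6 passed, with E2f3, a cell cycle factor gene, at -0.74, Mrs2 at -0.36, Cdkal1 at -0.35 and Mboat1 at 0.36. Of the Sox4 neighbours 3 fell as well, and no neighbour of Lef1 passed. Among all tested genes 36.7% passed, and counts out of 6 are too small to set a region apart. Around the genes that did not pass, 3 of 6 neighbours of Sox5 fell (St8sia1 at -1.59, Lrmp at -0.73 and Etnk1 at -0.34), 2 of 6 of Tox passed in opposite directions (Rab2a at 0.37 and Nsmaf at -0.33), and 1 of 6 of Bcl11b fell (Papola at -0.34).

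**Figure D4:**
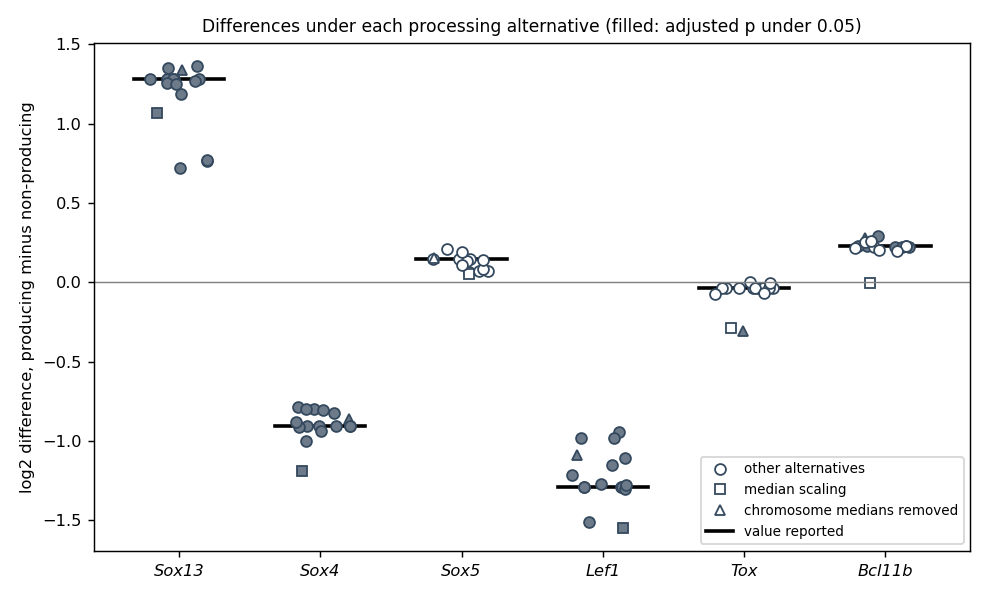
Log2 difference, producing minus non-producing (vertical axis), of the 6 genes under each alternative; the black line is the value reported, squares are median scaling, triangles are chromosome medians removed, and filled symbols passed an adjusted p of 0.05. Sox13 stays between 0.72 and 1.36, Sox4 between -1.19 and -0.78 and Lef1 between -1.55 and -0.94, while Bcl11b is near 0 with median scaling.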

How the data were processed

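RNA of 3 producing and 3 non-producing hybridoma samples was hybridized to Illumina mouse bead arrays, with biotinylated cRNA made with an Ambion kit per the labels' protocols. The scanner software is not given in the sources used here. Per the file headers, the authors deposited a table of average bead signal intensity without normalization. Beside it the deposited detection score, a fraction from 0 to 1 that rises with signal, was turned into a detection p-value by taking it from 1. A second deposited table holds the authors' processed intensity values. Its sorted columns match the mean sorted signals, within 0.065% for 99% of values, so it was read as quantile normalized.

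Signals were processed with neqc (limma 3.58.1, under R 4.3.3; negative controls inferred from detection p-values, offset 16), which assumes that no background had been subtracted. Tests covered the 17445 of 45281 probes detected (p under 0.05) on 3 or more of the 6 arrays. Groups were compared with lmFit and eBayes without covariates, two-sided, with Benjamini-Hochberg adjustment over all tested probes. Each gene was represented by the brightest of its tested probes. Symbols came from the platform annotation (34885 probes with 1 symbol) and were updated through the GRCm38.p6 gene table. The number of arrays limits the precision. The procedure was tested on simulated data.

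The genes and lists were chosen with earlier results of these data known. Named were all 7 genes, in each list up to 4 called genes by size of difference, and the 3 nearest genes in pattern. Bcl11a, Tcf7l1, Tcf7l2, Ctnnb1, Bcl9, Axin2, Gata3, Il17a, Il17f, neighbours, further SOX genes and markers were named after their values were seen. So were Ccr6, Rora, Etv5, Il23r, Il1r1, Blk and Zbtb16. Alternatives changed the background correction, normalization, filter, variance model, replicate block, chromosome medians, probe choice and the arrays used. No column of sample values went unused (0). Protein and probe sequences were not used here.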

Additional observations from a re-analysis of the deposited data

How the results depend on the processing

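Sox13, Sox4 and Lef1 kept their direction and passed under all 16 alternatives each. Their differences ranged from 0.72 to 1.36, from -1.19 to -0.78 and from -1.55 to -0.94, the smallest sizes coming from normexp with an offset of 50. Sox5 did not pass under any of 15 alternatives (0.05 to 0.21) and could not be tested where detection on all 6 arrays was required. Bcl11b passed with an offset of 50 (0.22476), without background correction (0.22501), with the authors' processed values (0.22473), with detection on all 6 arrays or no filter or an intensity trend (0.22632 each), with chromosome medians removed (0.28097) and with the mean of its probes (0.29035). It changed sign with median scaling (-0.0073), where the median of all tested probes was -0.22. Leaving out 1 array at a time gave 0.20 to 0.26 for Bcl11b and -0.0724 to 0.0043 for Tox, which changed sign without non-producing array 2. Removing chromosome medians, 0.27 on chromosome 4 and -0.05 on chromosome 12, brought Tox to -0.31 and 5 of the 6 genes past the test, against 3. On chromosome 3 the median was -0.20, and with it removed Lef1 stood at -1.09, still past the test. The count of probes past the test was 5906 and ranged from 4250 to 6720.

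The replicate numbers are shared between the groups, but same-numbered arrays did not deviate together from their group means (correlations -0.04, -0.16 and 0.09), and not every array correlated best with its own number. With the replicate number as a block, 5176 probes passed, and the calls of the 6 genes were as without it, with Bcl11b at an adjusted p of 0.113 and Sox13 at 0.000498 (limma). One hybridoma per group and dim probes near background, those of Sox5 above all, limit what these arrays can show.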
